A study of Homo sapiens with 4 samples.

Results

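The genes described here make or carry Wnt signals: the secreted WNT ligands, their Frizzled receptors and co-receptors, the secreted inhibitors of the DKK and SFRP families, the R-spondins with their LGR receptors, and the proteins that pass the signal to the nucleus. They were chosen by symbol from the genes that the array annotation names alone on a probe set, without use of their values. The choice gave 63 of 18417 measured genes, and TCF7 was the only symbol of the list that was not analysed here. By the sample labels, RNA came from PC3, an established human line of metastatic prostate cancer. PC3-PDEF cells, described as stably expressing the transcription factor PDEF (encoded by SPDEF), were compared with PC3-SCR cells, described as carrying empty pBABE vector. There were 2 Affymetrix human gene arrays of each. All cells grew in the same serum-containing medium, and nothing in the sources used here tells whether either line was 1 clone or whether replicate arrays held RNA of separate cultures. The p-values therefore cover the spread between these arrays only, which may be technical.

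Wnt ligands act at short range. In the canonical branch a ligand brings a Frizzled receptor together with LRP5 or LRP6, Dishevelled proteins are recruited, and a complex of APC, AXIN and GSK3B that marks beta-catenin for destruction is held back. Beta-catenin then joins TCF/LEF factors on DNA and turns on genes, some of which (AXIN2, RNF43, ZNRF3, NKD1) feed back on the pathway. Other branches run through ROR or RYK receptors and steer cell shape and polarity. In the prostate the pathway is known for its part in development and in advanced cancer.

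The labels were checked first. SPDEF had log2 signals of 6.85 and 6.73 in PC3-PDEF and of 5.99 and 6.06 in PC3-SCR. Its log2 fold change, PC3-PDEF over PC3-SCR here and below, was 0.77 (standard error 0.088). That is a 1.70-fold difference only, and the PC3-SCR signals lay just above the background gauge described below (5.94 and 6.01 on these arrays). CTNNA1 and STAT3, which other work describes as homozygously deleted in PC3, stood at 9.76 and 9.86 and at 9.06 and 9.05 in PC3-PDEF. In PC3-SCR they stood at 4.77 and 4.07 and at 4.51 and 4.70. The PC3-PDEF arrays thus go against their label as PC3 at these genes, and each difference below is one between these arrays. It cannot be told apart whether it comes with PDEF or with another difference between the cells. Over all genes, as a description, the PC3-PDEF arrays correlated with each other at a Pearson's r of 0.997, the PC3-SCR arrays at 0.996, and arrays of different groups at 0.923 to 0.925. Of the markers of other cell types, 0 of 4 endothelial, 1 of 7 stromal and 1 of 4 immune markers were above background in each group. The stromal marker was COL1A1, with 7.29 and 7.10 in PC3-PDEF and 8.66 and 8.41 in PC3-SCR, and the immune marker was CD68, with 7.31 and 7.41 in PC3-PDEF and 9.60 and 9.48 in PC3-SCR, and both were lower in PC3-PDEF. Of 7 markers of embryonic kidney cells, 3 were above it in PC3-PDEF and 4 in PC3-SCR, with mean log2 signals over the list of 6.08 and 5.99 in PC3-PDEF and of 5.97 and 5.92 in PC3-SCR. These means join genes that differed in both directions. By the test described below, SALL1 and WT1 were higher in PC3-PDEF, PAX8 and CDH6 were lower, and 3 did not pass. Of 5 luminal prostate markers, HOXB13 and FOXA1 were above it in both groups. Of 3 basal prostate markers, 1 (KRT14) was above it on both PC3-PDEF arrays and 0 on both PC3-SCR arrays. Of 4 neuroendocrine markers, INSM1 was above it in both groups. The part of such markers in the results was not tested.

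Background was gauged on each array by its highest olfactory receptor gene, since these genes are silent in most tissues. This gene had signals of 5.65 and 5.75 in PC3-PDEF and of 5.94 and 6.01 in PC3-SCR, so the gauge itself was lower in PC3-PDEF. Of the 63 genes, 26 were above it on all 4 arrays, 15 on both arrays of 1 group only, and 22 in neither way, which are called near background. A gene near background is given without a fold on the linear scale. A log2 fold change always refers to the measured signals, and where a group was not above the gauge it does not give the size of the difference. Where a whole group was not above the gauge, the fold is a bound, written as "at least": the mean of the brighter group against the gauge in the other.

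Wnt genes were called about as often as genes in general, but single members, such as the receptor gene FZD8 and the inhibitor gene DKK1, differed several-fold. At an adjusted p under 0.05 (limma, Benjamini-Hochberg over all genes), 20 members were higher and 8 lower in PC3-PDEF, 28 of 63 or 44.4%. Over all genes the test called 50.7%, with 26.7% higher and 24.0% lower. The share among members was therefore close to, and a little under, that background. The median log2 fold change was 0.01 for the members and -0.05 for all genes. Signals of the groups did not overlap in 45 of the 63 members, while over all genes this held for 74.7%. Among the 41 members above background in at least 1 group, 26 or 63.4% were called, against 68.5% of all such genes. By measured signal, changes of at least 2-fold were called upward for 8 of the 63 members and downward for 5 of them. Over all genes the shares with such calls were 8.67% upward and 6.07% downward. With 2 arrays against 2, an exact permutation test cannot give a two-sided p below 0.333.

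Of the 13 called members whose measured signals differed at least 2-fold, 12 were above background in at least 1 group, while ROR2 was near background. Of these 12, FZD3, FZD7, FZD5, RNF43, LEF1, APC and TCF7L2 were higher, and FZD8, DKK1, WNT7A, DVL1 and GSK3B were lower. The bounds of RNF43 (1.66-fold) and APC (1.56-fold) lie under 2-fold. All 12 passed the test under each alternative setting in which they were tested, including each fit without 1 array. The largest SD between the arrays of a group among them was 0.19 on the log2 scale. Without any 1 array the members called higher numbered 13, and those called lower numbered 5 without PC3-SCR replicate 1 or PC3-PDEF replicate 2, 6 without PC3-SCR replicate 2 and 7 without PC3-PDEF replicate 1. In all, 17 of the 28 called members passed in every such fit, and the 11 that did not are named with their groups below.

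**Figure D1:**
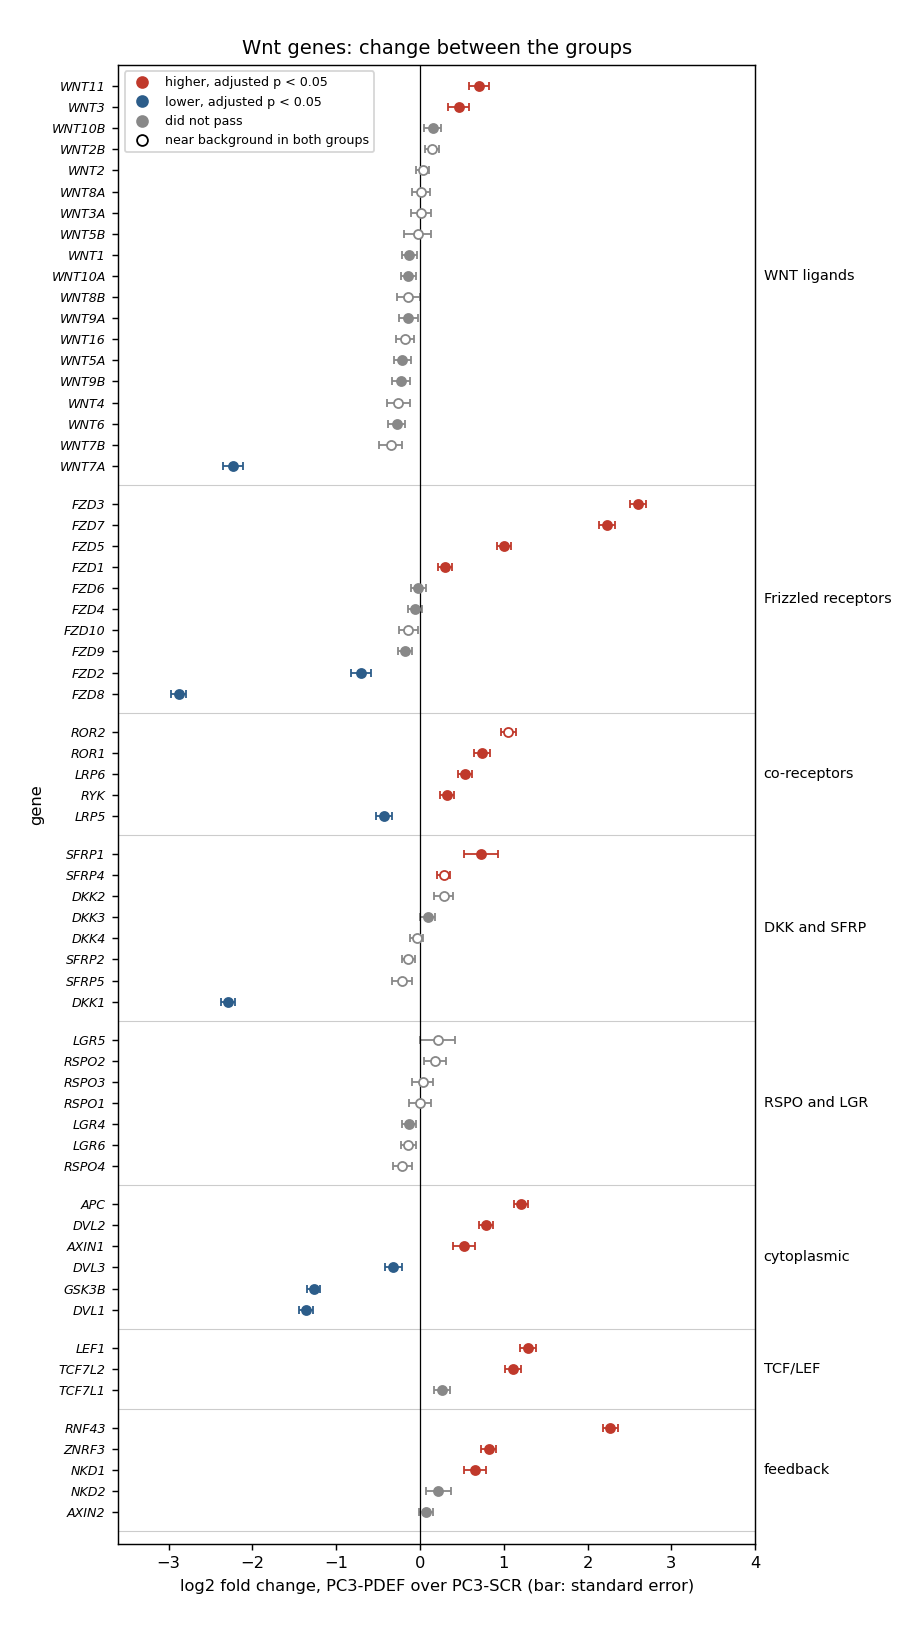
Log2 fold change of PC3-PDEF over PC3-SCR (horizontal axis) of the 63 Wnt genes (vertical axis, by role), with bars for the standard error (2 arrays in each group). Red points are higher and blue points lower at an adjusted p under 0.05, grey points did not pass, and open points are near background in both groups. FZD8 at -2.88 and FZD3 at 2.60 are the ends of the range, while most WNT ligands lie near 0.

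Most ligand genes did not pass the test. Of 19 WNT genes, 3 did, with WNT7A lower and WNT11 and WNT3 higher, and 9 of the 19 were near background. The share called over all genes was 50.7%. WNT7A, a ligand known from limb and female reproductive tract development, had log2 signals of 5.31 and 5.58 in PC3-PDEF and of 7.62 and 7.74 in PC3-SCR. Both PC3-PDEF arrays lay under the background gauge and both PC3-SCR arrays well above it. The log2 fold change of WNT7A was -2.23 with a standard error of 0.12 (adjusted p = 2.21e-05), and the level was at least 3.94-fold lower in PC3-PDEF.

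WNT11, which acts mainly outside the beta-catenin branch, had signals of 6.10 and 6.15 in PC3-PDEF and of 5.26 and 5.59 in PC3-SCR, where it was not above background. The difference was at least 1.11-fold, with an adjusted p of 0.00368. It did not pass without PC3-PDEF replicate 1 (adjusted p = 0.0966) or PC3-PDEF replicate 2 (adjusted p = 0.112). WNT3, a canonical ligand, had signals of 6.41 and 6.07 against 5.84 and 5.72 in PC3-SCR, a difference of at least 1.20-fold (adjusted p = 0.0251). It passed only without PC3-PDEF replicate 2 among the fits that left out 1 array, with an adjusted p of 0.152 without PC3-SCR replicate 1, 0.223 without PC3-SCR replicate 2 and 0.135 without PC3-PDEF replicate 1. Since PC3-SCR was not above background for either gene, the full size of these differences is not known.

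The other 16 WNT genes had log2 fold changes of the measured signals between -0.35 (WNT7B, near background) and 0.15 (WNT10B). WNT5A, the best known non-canonical ligand, was above background on all arrays, at 6.43 and 6.47 in PC3-PDEF and 6.76 and 6.56 in PC3-SCR. Its log2 fold change was -0.21, with a 95% interval of -0.45 to 0.03. WNT1, WNT6, WNT9A, WNT9B and WNT10B were also above background on all 4 arrays, and their adjusted p-values lay between 0.0597 (WNT6) and 0.35 (WNT9A). WNT2, WNT2B, WNT3A, WNT4, WNT5B, WNT7B, WNT8A, WNT8B and WNT16 were near background, and WNT10A was above it on all arrays but PC3-SCR replicate 1. WNT4 passed without PC3-PDEF replicate 1 (adjusted p = 0.0425). WNT5A passed after quantile normalization, WNT7B after median centring, and WNT6 after both and among genes above the median level. None of the 16 passed on the values as deposited, and the interval of WNT5A still allows a fall of up to 0.45 on the log2 scale.

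The Frizzled receptor genes changed in both directions. Of 10 genes, FZD3, FZD7, FZD5 and FZD1 were higher, FZD8 and FZD2 lower, and FZD4, FZD6, FZD9 and FZD10 did not pass. Over all genes 50.7% were called, and 68.5% of those above background in at least 1 group. FZD8, which can pair with LRP6 in canonical signaling, had log2 signals of 6.51 and 6.64 in PC3-PDEF against 9.47 and 9.44 in PC3-SCR. It remained above background in PC3-PDEF. The log2 fold change of -2.88, with a standard error of 0.088 (adjusted p = 4.10e-06), corresponds to a 7.36-fold lower level.

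FZD3, a receptor needed for axon guidance and planar polarity, went the other way, with 7.61 and 7.77 in PC3-PDEF and 5.18 and 5.00 in PC3-SCR. The PC3-SCR signals were not above background, so the level was at least 3.28-fold higher in PC3-PDEF (log2 fold change 2.60, standard error 0.10, adjusted p = 9.08e-06). FZD7, a receptor of intestinal and embryonic stem cells, had 7.60 and 7.39 in PC3-PDEF and 5.30 and 5.24 in PC3-SCR, at least 2.87-fold higher (adjusted p = 1.42e-05). For both genes the groups lay far apart, one above and the other under the gauge.

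FZD5, a canonical receptor on which pancreatic cancers without RNF43 depend, had signals of 7.05 and 7.03 in PC3-PDEF and of 6.06 and 6.02 in PC3-SCR. All 4 were above background, and the log2 fold change was 1.00 (adjusted p = 0.000118). FZD2, which has been tied to migration of cancer cells, was lower, with 6.66 and 6.45 in PC3-PDEF and 7.38 and 7.13 in PC3-SCR (log2 fold change -0.70, adjusted p = 0.00349). The call on FZD2 was lost without PC3-SCR replicate 1 (adjusted p = 0.0693), PC3-PDEF replicate 1 (adjusted p = 0.0582) or PC3-PDEF replicate 2 (adjusted p = 0.0954). FZD1, with 6.02 and 5.91 against 5.63 and 5.69 in PC3-SCR, passed on all arrays (adjusted p = 0.0264) but in none of the fits without 1 array (adjusted p from 0.0731 to 0.123), and no fold is given because the bound lies under 1.

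FZD6, a polarity receptor, was the clearest Frizzled gene with overlapping groups. Its signals were 8.49 and 8.59 in PC3-PDEF and 8.53 and 8.59 in PC3-SCR, with a 95% interval of the log2 fold change from -0.23 to 0.19. FZD4, the receptor of norrin in retinal vessels, had an interval of -0.26 to 0.15, and FZD9 one of -0.38 to 0.02. FZD10 was near background in both groups.

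**Figure D2:**
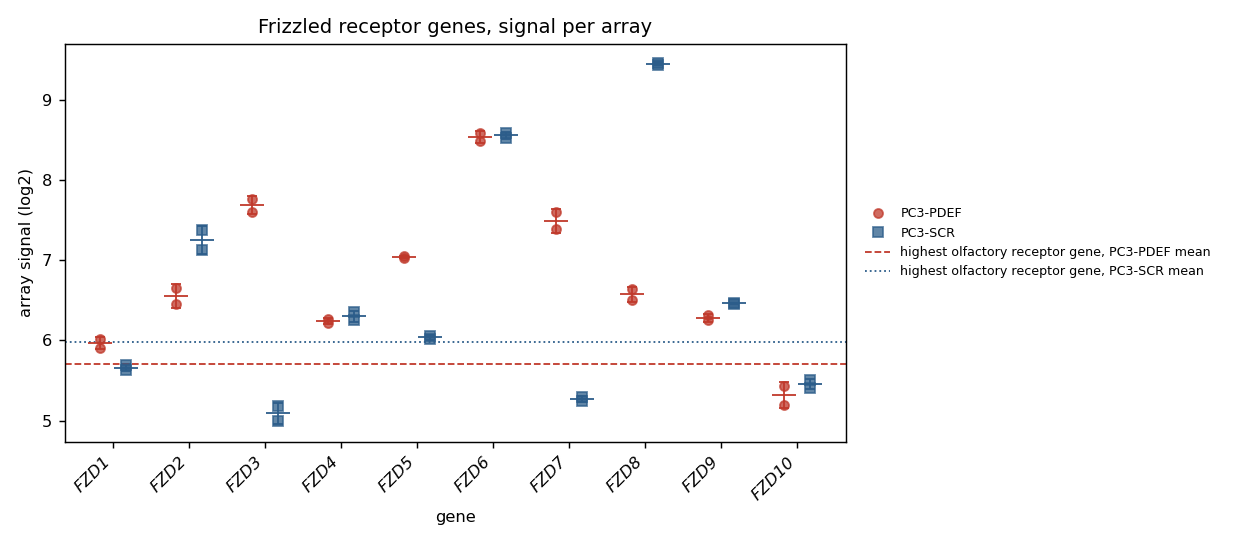
Log2 array signal (vertical axis) of the 10 Frizzled genes (horizontal axis) in PC3-PDEF (circles) and PC3-SCR (squares), with a line at the mean of the 2 arrays, bars for their SD, and the mean level of the highest olfactory receptor gene of each group as horizontal lines. FZD3 and FZD7 lie above the lines in PC3-PDEF and under them in PC3-SCR, FZD8 lies near 6.6 in PC3-PDEF and near 9.5 in PC3-SCR, and FZD6 lies at the same height in both.

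Of the co-receptors, 4 were higher and 1 was lower, where 50.7% of all genes and 68.5% of those above background in at least 1 group were called. LRP6, the main co-receptor of the canonical branch, had signals of 8.68 and 8.65 in PC3-PDEF and of 8.16 and 8.10 in PC3-SCR, 1.45-fold higher (adjusted p = 0.00192). Its paralog LRP5 was lower, with 7.23 and 6.99 in PC3-PDEF against 7.55 and 7.53 in PC3-SCR (log2 fold change -0.43, adjusted p = 0.0144). LRP5 did not pass without PC3-SCR replicate 1 (adjusted p = 0.134), PC3-SCR replicate 2 (adjusted p = 0.125) or PC3-PDEF replicate 2 (adjusted p = 0.0803). The paralogs thus moved in opposite directions with all arrays in the fit.

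The receptor tyrosine kinase-like genes were higher. ROR1, an oncofetal receptor of WNT5A, had 7.46 and 7.30 in PC3-PDEF and 6.61 and 6.67 in PC3-SCR, 1.67-fold higher (adjusted p = 0.000805). Its paralog ROR2 had 5.89 and 5.75 in PC3-PDEF and 4.74 and 4.79 in PC3-SCR (adjusted p = 0.000152), but PC3-PDEF replicate 2 only reached the gauge and the gene counts as near background. RYK, a pseudokinase receptor, was 1.24-fold higher, with 9.21 and 9.25 against 8.90 and 8.93 in PC3-SCR (adjusted p = 0.0175). RYK passed in none of the fits without 1 array (adjusted p from 0.0629 to 0.0888).

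Among the secreted inhibitors, DKK1 stood out. DKK1 blocks LRP5 and LRP6, is itself turned on by beta-catenin in many cells, and is known in prostate cancer for its effect on bone. Its log2 signals were 7.09 and 6.98 in PC3-PDEF and 9.35 and 9.30 in PC3-SCR. The level was 4.89-fold lower in PC3-PDEF (log2 fold change -2.29, standard error 0.086, adjusted p = 7.46e-06) and above background in both groups. Of the other 7 inhibitors, SFRP1 and SFRP4 passed the test and 5 did not. In all, 37.5% of the 8 inhibitors were called, against 50.7% of all genes, and 5 of the 8 were near background.

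SFRP1, which binds Wnt ligands outside the cell, had 6.23 and 5.77 in PC3-PDEF and 5.04 and 5.49 in PC3-SCR. The arrays of each group were far apart, and the difference was at least 1.02-fold (adjusted p = 0.0218). It was lost in each fit without 1 array (adjusted p from 0.089 to 0.245). SFRP4 was near background (3.63 and 3.63 in PC3-PDEF, 3.34 and 3.37 in PC3-SCR), and its call (adjusted p = 0.0282) was lost in each fit without 1 array (adjusted p from 0.0721 to 0.099). DKK3, a divergent member of the DKK family often silenced in cancer, had a log2 fold change of 0.09 with a 95% interval of -0.12 to 0.29. DKK2, DKK4, SFRP2 and SFRP5 were near background.

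None of the 7 R-spondin and LGR genes passed the test, where 50.7% of all genes were called. R-spondins are secreted proteins that strengthen Wnt signals by drawing RNF43 and ZNRF3 away from Frizzled receptors, and LGR4, LGR5 and LGR6 bind them. All 4 RSPO genes, LGR5 and LGR6 were near background in both groups. LGR4 was well above it, with 8.83 and 8.92 in PC3-PDEF and 9.02 and 8.99 in PC3-SCR. Its log2 fold change was -0.13 (95% interval -0.33 to 0.07, adjusted p = 0.242).

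All 6 cytoplasmic members passed the test, 3 in each direction, where 68.5% of all genes above background in at least 1 group were called. GSK3B, the kinase that phosphorylates beta-catenin, had signals of 8.51 and 8.56 in PC3-PDEF and of 9.81 and 9.81 in PC3-SCR, 2.42-fold lower (log2 fold change -1.27, adjusted p = 4.60e-05). APC, a scaffold of the same complex, had 6.64 and 6.59 in PC3-PDEF and 5.45 and 5.36 in PC3-SCR, where it was not above background, and was at least 1.56-fold higher (adjusted p = 6.75e-05). AXIN1, the limiting scaffold, had 6.67 and 6.87 against 6.11 and 6.40 in PC3-SCR (log2 fold change 0.51, adjusted p = 0.0154). AXIN1 passed in none of the fits without 1 array (adjusted p from 0.052 to 0.195). Members of the destruction complex therefore differed in both directions.

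The Dishevelled genes, which relay the signal from Frizzled receptors, also split. DVL1 was 2.58-fold lower, with 7.96 and 7.90 in PC3-PDEF and 9.35 and 9.24 in PC3-SCR (log2 fold change -1.36, adjusted p = 4.71e-05). DVL2 was 1.73-fold higher, with 8.03 and 8.09 in PC3-PDEF against 7.28 and 7.26 in PC3-SCR (adjusted p = 0.000337). DVL3 was lower, with 7.48 and 7.34 against 7.81 and 7.65 in PC3-SCR (log2 fold change -0.32, adjusted p = 0.0363), a call lost in each fit without 1 array (adjusted p from 0.0819 to 0.216). All Dishevelled signals were above background.

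The TCF/LEF factors carry beta-catenin to DNA. LEF1, usually high where the pathway is active, had log2 signals of 8.05 and 8.23 in PC3-PDEF and of 6.89 and 6.81 in PC3-SCR, 2.45-fold higher (log2 fold change 1.29, standard error 0.097, adjusted p = 9.08e-05). TCF7L2, the main factor of intestinal epithelium, had 7.32 and 7.44 in PC3-PDEF and 6.17 and 6.37 in PC3-SCR, 2.16-fold higher (adjusted p = 0.000221). TCF7L1, mainly a repressor, had 7.02 and 6.98 against 6.84 and 6.64 in PC3-SCR, and its log2 fold change of 0.26 did not pass (95% interval 0.02 to 0.50 before adjustment, adjusted p = 0.0678). For all 3 factors both PC3-PDEF arrays lay above both PC3-SCR arrays. Over all genes this held for 6447 of 18417, and 74.7% did not overlap in 1 direction or the other.

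Of 5 feedback genes, 3 were higher and 2 did not pass. The shares called were 50.7% of all genes and 68.5% of those above background in at least 1 group, as all 5 were. RNF43, a ubiquitin ligase that removes Frizzled receptors from the surface, had 6.73 and 6.69 in PC3-PDEF and 4.50 and 4.37 in PC3-SCR. It was at least 1.66-fold higher in PC3-PDEF, since the PC3-SCR arrays were under the gauge (log2 fold change 2.27, adjusted p = 8.18e-06). Its partner ZNRF3 had 6.66 and 6.51 against 5.73 and 5.80 in PC3-SCR, at least 1.53-fold higher (adjusted p = 0.000492). By this gauge both ligases were above background in PC3-PDEF only.

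AXIN2, the most widely used readout of beta-catenin activity, did not differ beyond the spread of the arrays. Its signals were 5.72 and 5.83 in PC3-PDEF and 5.75 and 5.67 in PC3-SCR, all close to the gauge, with a 95% interval of the log2 fold change from -0.15 to 0.28 (adjusted p = 0.574). NKD1, an inhibitor of Dishevelled, had 5.70 and 6.05 against 5.17 and 5.27 in PC3-SCR (log2 fold change of the measured signals 0.66, adjusted p = 0.00623). No linear fold is given because the bound lies under 1. NKD1 did not pass without PC3-SCR replicate 1, PC3-SCR replicate 2 or PC3-PDEF replicate 2. Its paralog NKD2 had an interval of -0.14 to 0.58.

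**Figure D3:**
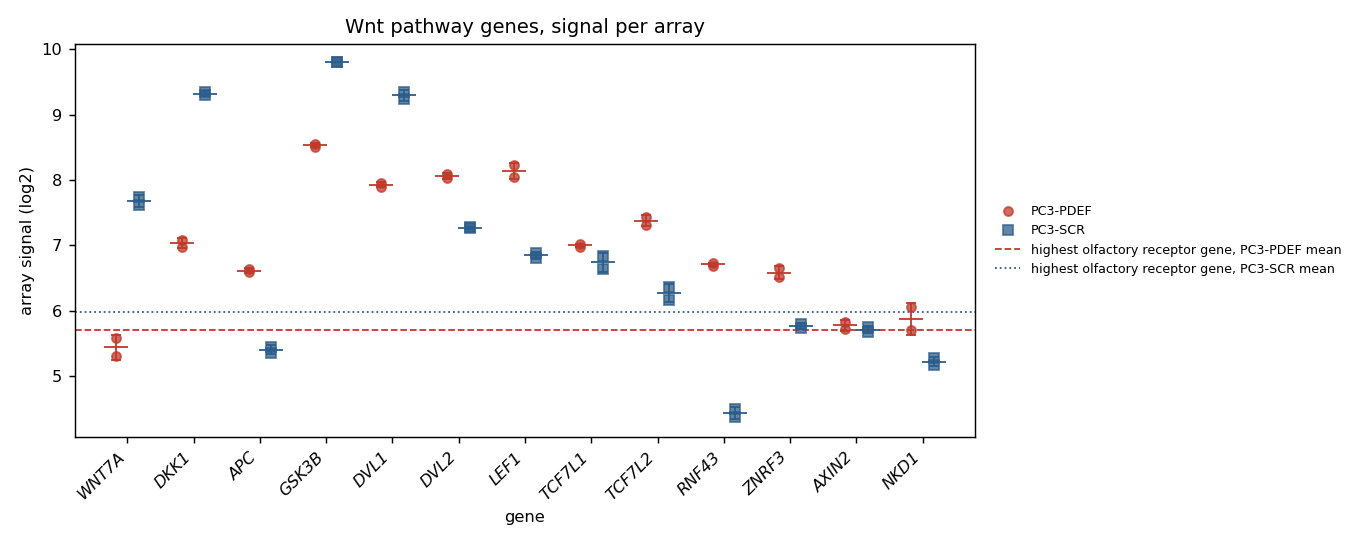
Log2 array signal (vertical axis) of 13 Wnt ligand, inhibitor, transducer, nuclear factor and feedback genes (horizontal axis) in PC3-PDEF (circles) and PC3-SCR (squares), with a line at the mean of the 2 arrays, bars for their SD, and the mean level of the highest olfactory receptor gene of each group as horizontal lines. WNT7A, DKK1, GSK3B and DVL1 lie lower in PC3-PDEF, RNF43 and LEF1 lie higher, and the AXIN2 arrays of the groups overlap near the lines.

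Promoters are shown for 3 members with large changes that fall in different roles, to let the letters before their starts be read. Each run holds the 250 bases before the RefSeq start on GRCh38.p14, 5′ to 3′ on the strand of the gene. FZD8 is at chr10:35642297-35642546 (minus strand), DKK1 at chr10:52314031-52314280 (plus strand) and LEF1 at chr4:108166302-108166551 (minus strand). Capitals mark the TCF/LEF core TCAAAG, the core CCGGAT that PDEF prefers and the core CCGGAA of other ETS factors, on either strand. The ETS cores differ in the last letter and none of the marked runs overlap.
FZD8: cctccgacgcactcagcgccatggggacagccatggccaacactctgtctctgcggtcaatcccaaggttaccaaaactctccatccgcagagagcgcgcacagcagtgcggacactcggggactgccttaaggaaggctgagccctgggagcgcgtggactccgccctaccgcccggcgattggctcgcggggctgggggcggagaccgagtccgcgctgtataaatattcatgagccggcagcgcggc
DKK1: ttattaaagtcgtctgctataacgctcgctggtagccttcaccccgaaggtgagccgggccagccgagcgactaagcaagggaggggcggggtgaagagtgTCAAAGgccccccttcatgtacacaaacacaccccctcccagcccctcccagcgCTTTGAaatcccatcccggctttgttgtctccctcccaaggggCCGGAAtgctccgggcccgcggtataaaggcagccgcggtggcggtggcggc
LEF1: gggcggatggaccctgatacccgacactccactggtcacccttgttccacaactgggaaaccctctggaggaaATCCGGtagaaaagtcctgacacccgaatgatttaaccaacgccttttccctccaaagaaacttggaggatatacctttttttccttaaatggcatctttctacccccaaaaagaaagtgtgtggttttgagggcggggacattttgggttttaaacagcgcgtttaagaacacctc
DKK1 holds TCAAAG on both strands, starting 149 and 95 bases before the start, and CCGGAA at 52 bases. LEF1 holds CCGGAT on the minus strand of the run, 177 bases before the start, and FZD8 holds none of the 3. Of 35116 such windows of all genes, 11.2% hold TCAAAG, 5.85% CCGGAT and 14.5% CCGGAA. RefSeq windows were matched for 45 of the 63 members, and of their 54 windows 1 holds TCAAAG (DKK1), 4 hold CCGGAT (DVL1, FZD4, LEF1 and WNT5A) and 3 hold CCGGAA (AXIN1, DKK1 and GSK3B). The genes with CCGGAT thus include 1 that was higher, 1 that was lower and 2 that did not pass. A match is a description of the letters only, since no binding was measured.

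Other genes of the pathway were read from 4 lists of 127 symbols, of which 121 were measured. At the same threshold 46 were higher and 32 lower in PC3-PDEF, 64.5% of those measured. This lies between the 50.7% called over all genes and the 68.5% called among those above background in at least 1 group. The median log2 fold change over the 4 lists was 0.06. Among genes of secretion and the extracellular space, 6 of 24 were higher and 6 lower. WLS, the carrier that all WNT ligands need for export, had signals of 10.55 and 10.55 in PC3-PDEF and of 9.31 and 9.34 in PC3-SCR (log2 fold change 1.23, adjusted p = 5.14e-05). The glypican genes GPC3 and GPC4, which encode surface proteoglycans, were higher, GPC3 at least 4.14-fold and GPC4 with a log2 fold change of 1.70. CPE, which encodes a prohormone-processing enzyme that can inhibit Wnt signaling, had one of 1.81. IGFBP4, a secreted protein that can block LRP6, fell by 3.35 on the log2 scale, and CTHRC1, a secreted partner of non-canonical ligands, fell by 1.60.

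CTNNB1, which encodes beta-catenin and is named here for its role, did not pass the test. Its signals were 10.97 and 10.95 in PC3-PDEF and 10.90 and 10.90 in PC3-SCR, and the log2 fold change was 0.06 (adjusted p = 0.565). Of the 32 transducer genes measured, CTNNB1 included, 9 were higher and 10 lower, 59.4% in all, and 7 were near background. The shares called were 50.7% of all genes and 68.5% of those above background in at least 1 group. CSNK1A1, the kinase that primes beta-catenin for GSK3B, fell by 1.09 on the log2 scale, while BTRC, a subunit of the ubiquitin ligase that reads this mark, rose by 1.18. The phosphatase subunit gene PPP2R5E fell by 1.12 and DAB2, an endocytic adaptor that can hold back the pathway, fell by 1.67. AMER1, a membrane anchor of APC, was at least 1.56-fold higher, and CBY1, a beta-catenin antagonist, at least 1.45-fold higher. The genes that act against beta-catenin therefore moved in both directions.

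Of 25 nuclear cofactors 11 were higher and 6 lower, 68.0% in all, close to the 68.5% of all genes above background in at least 1 group. Their median log2 fold change was 0.21. TLE4, a Groucho corepressor of TCF/LEF factors, had 9.01 and 8.88 in PC3-PDEF and 5.25 and 5.13 in PC3-SCR, at least 7.84-fold higher (adjusted p = 3.03e-06). TLE3, its paralog, rose by 1.43 on the log2 scale. The ATPase gene RUVBL1 rose by 1.74, the coactivator gene CREBBP by 0.86, while the coactivator gene BCL9L fell by 1.04 and the kinase gene HIPK2 fell by 1.90.

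In the polarity and non-canonical branch 20 of 40 genes were higher and 10 lower, where 50.7% of all genes and 68.5% of those above background in at least 1 group were called. The median log2 fold change was 0.24. JUN, an AP-1 gene at the end of the JNK arm, rose by 3.38 on the log2 scale. PLCB1, a phospholipase gene of the calcium arm, was at least 2.31-fold higher, and its paralog PLCB4 at least 3.22-fold lower. CAMK2G, a calcium-dependent kinase gene, fell by 2.06, and NFATC2, a transcription factor gene of the same arm, was at least 2.27-fold lower.

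Of 54 listed genes that beta-catenin is known to activate, 51 were measured, and 13 were higher, 23 lower and 15 did not pass, with a median log2 fold change of -0.21. Over all genes 26.7% were higher and 24.0% lower, and the difference between the list and other genes was not tested. Many of them answer to other pathways too, and 18 of the 51 were near background. The list holds none of the members described above, so its counts leave out members that beta-catenin also turns on. Among those named above as such, RNF43, ZNRF3 and NKD1 were called higher, DKK1 was lower and AXIN2 did not pass. The bound of NKD1 lies under 1, and its call was not kept in every fit without 1 array. LEF1, usually high where the pathway is active, was higher too. FST, a secreted activin antagonist, fell by 3.44 on the log2 scale, CD44, a receptor of hyaluronan, fell by 3.35 and JAG1, a Notch ligand, fell by 3.04. RUNX2, a transcription factor of bone, was at least 4.27-fold lower. ID2, an inhibitor of helix-loop-helix factors, was at least 6.32-fold higher and the drug efflux pump gene ABCB1 at least 1.60-fold higher. CCND1, named for its role, fell by 0.86 (adjusted p = 0.000276), and MYC, also named for its role, did not pass (log2 fold change -0.05, adjusted p = 0.646). Without PC3-PDEF replicate 1, 22 of the targets passed in place of 36.

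**Figure D4:**
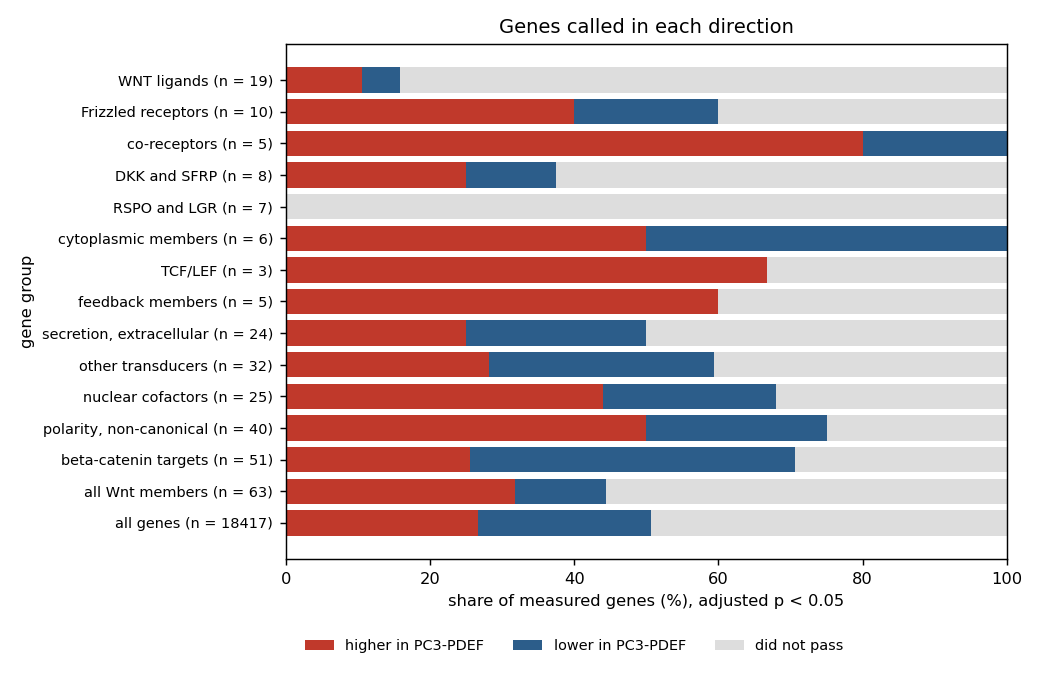
Share of measured genes (horizontal axis, %) that were higher in PC3-PDEF (red), lower (blue) or did not pass (grey) at an adjusted p under 0.05, for each group of Wnt genes, the other pathway lists and all genes (vertical axis, number measured in brackets). All 6 cytoplasmic members and all 5 co-receptors passed, 3 of 19 WNT ligands and 0 of 7 RSPO and LGR genes did, and over all genes the share is 50.7%.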

How the data were processed

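RNA of PC3-PDEF and PC3-SCR cells (2 arrays each) was hybridized to Affymetrix HuGene-1.0-st arrays. The authors deposited log2 signals of 33297 probe sets. The submitters' processing notes name Transcriptome Analysis Console, and neither a version nor a method of background correction or normalization is given in the sources used here. That the scale is log2 follows from the span of the values. The medians over all genes were 6.21 on both PC3-PDEF arrays and 6.14 on both PC3-SCR arrays, so no further scaling was done. Scaling between arrays by the authors would hide a change shared by all genes. A dim gene's fold is compressed toward background, and the number of arrays limits the precision.

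Names of probe sets came from the platform annotation, with symbols updated in the RefSeq gene table of GRCh38.p14, where 99.8% of the single-gene entries were found. The 19460 probe sets with 1 symbol were used, and 1754 with several symbols and 12083 unnamed here were not. The probe set with the highest mean stood for a gene, and among the members DKK3 alone had several. The gauge of background left out OR51E1 and OR51E2, which prostate cells are known to transcribe. No filter on low signals was applied.

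The comparison used the two-sided test of limma 3.58.1 (R 4.3.3; lmFit, then eBayes) across all 18417 genes, on 2 residual plus 4.23 prior degrees of freedom, and a gene was called at a Benjamini-Hochberg adjusted p under 0.05. The fit was also run on simulated data with far fewer changed genes than were called here, so that run does not bear on the share called here. The members, the lists and the tests were chosen with earlier results of these data known. Every member may be named, and of each other list up to 6 called genes with the largest change that were above background in a group, while CTNNB1, MYC and CCND1 fall outside this rule and were named after their values were seen. Alternatives were quantile normalization, median centring, genes above the median level, the mean of a gene's probe sets, an intensity trend, the replicate number as a block and leaving out each array.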

Additional observations from a re-analysis of the deposited data

How the results depend on the processing

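No member that was called changed direction under any alternative run. With all 28 called members as the base, 28 still passed after quantile normalization, 26 after median centring (without FZD1 and SFRP4), 28 with the mean of probe sets, 26 with an intensity trend (without FZD1 and SFRP4) and 25 with the replicate number as a block (without FZD1, SFRP1 and SFRP4). The same-numbered arrays did not deviate together (r = 0.0221 over all genes), and with this block 17 members were higher and 8 lower, against 20 and 8 without it. Quantile normalization added DKK2, FZD9, WNT5A and WNT6, and median centring, which shifted all genes by -0.07 on the log2 scale, added FZD9, WNT6 and WNT7B. Among genes above the median level, where 28 members were tested, FZD9, TCF7L1 and WNT6 were added, 11 were higher, and 21 beta-catenin targets were called against 36. Fewer genes entered that fit. Without 1 array, the lone array of a group being assumed to vary like the others, 13 members were higher in each fit and 5 to 7 were lower. In these fits 22 to 26 beta-catenin targets and 54 to 56 of the other pathway genes were called, against 36 and 78 with all arrays. With the next highest olfactory receptor gene as the gauge, chosen after seeing the data, 14 members were near background in place of 22.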
